A study of Homo sapiens with 18 samples.

Results

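The genes described here are the kinesin motor proteins, the centromere proteins with CENP symbols, the cyclins of the A, B, D and E families, and 11 further genes of chromosome segregation: AURKA, AURKB, BUB1, BUB1B, CDC20, CDK1, PLK1, TTK, NDC80, NUF2 and TOP2A. The rule goes by gene symbol and fits 80 protein-coding genes of RefSeq, of which 74 had a named probe set among the 14884 named genes of the array. CCNA1, CENPB, CENPE, CENPF, CENPS and NUF2 were not analysed here. Levels are log2 signals on Affymetrix Human Gene 2.0 ST arrays, and a difference of 1 is 2-fold. The cells were U937, an established human myeloid leukaemia line of monocytic character.

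There were 18 arrays, 3 in each of 6 groups, and all cells were grown in RPMI medium with fetal calf serum and antibiotics. The control is labelled only as such. Decitabine (5-aza-2'-deoxycytidine), which traps DNA methyltransferases after its incorporation into DNA, was given in 3 pulses of 24 h. Panobinostat and valproic acid both inhibit histone deacetylases, and each was given alone or together with the last decitabine pulse for 24 h. The labels carry the numbers 50 for decitabine, 8 for panobinostat and 1 for valproic acid with no unit, and the inhibitors cannot be matched by dose, so their responses are given side by side. No label says whether a group's arrays are of separate cultures, so the p-values measure the spread between these arrays, which may be technical. U937 is 1 line, and each comparison concerns that line.

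Kinesins are motors that use ATP to move along microtubules. Some of them build the mitotic spindle and separate the chromosomes, while others carry vesicles, organelles and the components of cilia. CENPA is the histone H3 variant that marks the centromere, and the inner centromere network of CENP proteins assembles on it and joins it to the NDC80 complex, which grips spindle microtubules. Cyclins D and E drive cells through G1 into S phase, cyclin A acts in S and G2, and cyclin B with CDK1 drives mitosis. Transcripts of most of these division genes accumulate in G2, partly because repressor complexes bind the CHR element of their promoters in resting and G1 cells. In RNA from whole cultures, fewer cells in a phase and less RNA per cell cannot be told apart.

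Promoter sequences are shown first, for division members and for transport kinesins, because the CHR is the element through which many division genes follow the cell cycle. Windows of 250 bases before to 50 after a gene's start (RefSeq, GRCh38.p14) were held for 60 of the 74 members, with 75 starts in all. The CHR was searched only as TTTGAA or, on the other strand, TTCAAA. Other spellings of the element were not searched, so a gene without a match may still hold one. A match was present in 15.2% of all 35116 windows of the same length and in 18.2% of genes with any start counted. Among members, with any start counted, it was found in 9 of 13 spindle and division kinesins, 5 of 7 mitotic kinases, checkpoint and kinetochore genes, 4 of 12 inner centromere genes, 1 of CCNA2, CCNB1 and CCNB2 (CCNB2) and 1 of 20 other kinesins. The CCAAT box, searched as CCAAT or ATTGG and present in 34.6% of all windows and 39.7% of genes, was found in 10 of 13 division kinesins, 5 of 7 mitotic kinases, checkpoint and kinetochore genes, all 3 of CCNA2, CCNB1 and CCNB2, 9 of 12 inner centromere genes and 7 of 20 other kinesins. The GC box, GGGCGG or CCGCCC, was present in 45% of all windows and 48.3% of genes, and in 49 of the 60 members, among them 19 of 20 other kinesins and 12 of 13 division kinesins. Motifs can share letters at their ends and were counted separately, and a match is a description of letters, not of binding. The following stretches of 120 bases end at the base before the start and show 5 division members that hold both elements, with the CHR and CCAAT matches in capitals. They are PLK1 at chr16:23678769-23678888 on the plus strand, CCNB2 at chr15:59105026-59105145 on the plus strand, CDC20 at chr1:43358861-43358980 on the plus strand, KIF23 at chr15:69414229-69414348 on the plus strand and KIF18A at chr11:28108157-28108276 on the minus strand.
PLK1: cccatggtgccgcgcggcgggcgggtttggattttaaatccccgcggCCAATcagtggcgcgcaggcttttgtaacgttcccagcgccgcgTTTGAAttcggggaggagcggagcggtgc
CCNB2: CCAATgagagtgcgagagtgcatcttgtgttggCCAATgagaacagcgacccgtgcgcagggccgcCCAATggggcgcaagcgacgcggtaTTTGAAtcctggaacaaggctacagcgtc
CDC20: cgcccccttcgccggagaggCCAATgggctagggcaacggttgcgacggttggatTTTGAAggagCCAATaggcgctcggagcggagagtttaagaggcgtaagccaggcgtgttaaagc
KIF23: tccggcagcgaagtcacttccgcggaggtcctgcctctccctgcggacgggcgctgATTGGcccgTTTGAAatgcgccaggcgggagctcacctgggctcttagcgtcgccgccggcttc
KIF18A: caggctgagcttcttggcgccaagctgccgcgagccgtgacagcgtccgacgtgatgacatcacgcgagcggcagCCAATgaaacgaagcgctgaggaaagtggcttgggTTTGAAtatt
The first base of the CHR stood at position -29 from the start in PLK1 and in CCNB2, at -65 in CDC20, at -55 in KIF23 and at -10 in KIF18A.

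A second set shows 4 members named in the results that follow, taken from those with 1 start. KIF5C and KIF9, whose largest changes exceed those of KIF3A, had more than 1 start and are not shown. KIF3A (chr5:132737547-132737666, minus strand) and KIF3B (chr20:32277531-32277650, plus strand) encode the paired motor subunits of kinesin-2. CCNB3 (chrX:50204645-50204764, plus strand) had the largest rise and CENPV (chr17:16353470-16353589, minus strand) the largest fall of all members with decitabine plus panobinostat. Capitals mark CCAAT matches, and none of these 4 stretches holds a match to the CHR as searched.
KIF3A: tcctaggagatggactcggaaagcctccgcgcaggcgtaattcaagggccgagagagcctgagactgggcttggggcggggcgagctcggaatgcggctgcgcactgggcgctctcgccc
KIF3B: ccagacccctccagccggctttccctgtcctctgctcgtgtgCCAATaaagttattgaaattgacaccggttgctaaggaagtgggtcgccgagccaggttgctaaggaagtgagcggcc
CCNB3: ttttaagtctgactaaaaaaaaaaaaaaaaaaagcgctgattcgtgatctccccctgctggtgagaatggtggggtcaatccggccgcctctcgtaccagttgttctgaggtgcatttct
CENPV: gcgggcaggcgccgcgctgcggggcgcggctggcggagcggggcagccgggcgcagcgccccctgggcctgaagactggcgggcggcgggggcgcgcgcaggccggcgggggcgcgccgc
The window of CCNB3 held 11 CG pairs and that of CENPV 44, against a median of 14 over all windows and 26 over the members' windows. DNA methylation was not measured on these arrays.

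The members were mostly well expressed. Their median mean level was 8.27, against 4.63 over all named genes, 41 had a mean level of 8 or more and 12 were under 5. TOP2A, the topoisomerase that untangles sister chromatids, was brightest at 12.09, followed by CCNA2 at 11.93 and the spindle motor KIF11 at 11.43. The neuronal KIF5A at 3.26, KIF6 at 3.28 and KIF2B at 3.36 were dimmest and lay below the array medians of 3.81 to 3.87, where a level cannot be told from background. Probe sets differ in brightness for the same amount of RNA, so these levels do not rank the genes by abundance.

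Arrays of a group correlated at 0.985 to 0.992 over all genes. The first principal component, with 34.2% of the variance, placed the control arrays at -35.9 to -33.3 and the decitabine plus panobinostat arrays at 32.9 to 36.5. The decitabine plus valproic acid arrays lay at 12, 23.9 and 30.6, with replicate 1 apart from the others. Of the 12 myeloid markers checked, 6 were measured, with MPO at 11.29 to 12.41, LYZ at 7.05 to 9.88 and SPI1 at 5.78 to 7.28. Markers of other cell types were mixed: EPCAM (3.49 to 4.89), KRT8 (3.43 to 4.22), CD8A (3.95 to 5.27) and PAX5 (4.01 to 6.1) were low, while VIM (6.17 to 9.41), KRT18 (6.26 to 6.99), NCAM1 (7.74 to 9.08) and NKG7 (5.06 to 7.35) were not. The mean of the 6 myeloid markers moved with the groups: it was 8.16 to 8.3 on the control arrays, 8.95 to 9.13 with decitabine, 7.88 to 8.21 with panobinostat, 7.78 to 7.82 with valproic acid, 8.33 to 8.43 in the combination with panobinostat and 8.18 to 8.8 in that with valproic acid. The mean of the 4 epithelial and stromal markers moved too, from 5.13 to 5.18 in control to 5.69 to 5.79 with decitabine, 5.65 to 5.71 with panobinostat, 5.48 to 5.61 with valproic acid, 5.76 to 6.13 with panobinostat added to decitabine and 5.77 to 6.1 with valproic acid added. The 3 T and NK cell markers lay at 5.94 to 6.28 in control and 6.09 to 6.62 elsewhere. The part of these markers in the changes below was not tested.

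A member is said to have risen or fallen, or to be called, where its Benjamini-Hochberg adjusted p over all 14884 genes was under 0.05 in limma. Against control, no member was called with decitabine, for which 3.96% of all genes were called, and 11 members had an unadjusted p under 0.05. With panobinostat 5 members were called (1 higher, 4 lower), where 7.39% of all genes were called, 3.92% higher and 3.47% lower. With valproic acid 9 members were called (8 higher, 1 lower), where 7.47% of all genes were, 4.73% higher and 2.74% lower. With decitabine plus panobinostat 23 members were called, 6 higher and 17 lower, where 23.2% of all genes were called, 11.2% higher and 12% lower. With decitabine plus valproic acid 15 were called, 7 higher and 8 lower, where 17% of all genes were called, 8.9% higher and 8.06% lower. Since few members are dim, the closer background is the 7545 genes at a level of 5 or more on at least 3 arrays. Of these 6.92% were called with decitabine, 13.5% with panobinostat and 13.6% with valproic acid, beside 0, 7.94% and 14.3% of the 63 members at such a level. Of the same genes 38.6% were called with decitabine plus panobinostat (16.5% higher, 22.1% lower) and 28.4% in the other combination (13.7% higher, 14.7% lower). All 23 and 15 called members were among the 63, which makes 36.5% and 23.8%. The counts alone thus say nothing particular about these genes. The level of 5 could be reached on arrays of any group, treated ones included, for members and background genes alike. KIF5C, at 3.65 to 3.74 in control, reached it only on combination arrays (5.01, 5.87, 5.75 and 5.58). These shares therefore lean in part on the values being compared.

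Over the 63 members at such a level the median change with decitabine was 0.06, with panobinostat -0.08 and with valproic acid 0.07. It was -0.18 for decitabine plus panobinostat and -0.03 for decitabine plus valproic acid. Over the 7545 expressed genes the corresponding medians were -0.03, -0.05, -0.02, -0.1 and -0.06. Over all 74 members they were 0.06, -0.08, 0.03, -0.15 and -0.03. The 5 group means of treated cells and that of the control spanned 0.11 to 1.96 on the log2 scale per member, with a median span of 0.52. In all, 32 members were called in at least 1 of the 5 comparisons with control, 42 in none and 0 in both directions. The matching counts over all genes were not computed. These comparisons share the 3 control arrays.

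The scaling bears on these counts and medians. The median level over the named genes was 0.17 higher than control on the decitabine plus panobinostat arrays and 0.16 higher on the decitabine plus valproic acid arrays, and 0.06 to 0.07 higher with the single agents. Centring each array on that median lowers every change against control by the difference of its group. It lowers every median change given here or below by as much, for members and background genes alike. With each array so centred, 37 members were called with decitabine plus panobinostat, 5 higher and 32 lower, and 19 with decitabine plus valproic acid, 5 higher and 14 lower. Over all 14884 genes centring raised the calls as well, from 3447 to 4501 and from 2524 to 3578 in turn. The split of these by direction was not computed, so the centred counts by role below have no matching share. No called member changed direction. Centring ended the calls of BUB1, KIF13B (0.37), KIF14 and KIF5C (0.77) with valproic acid, of KIF14 with decitabine plus panobinostat, and of CENPI and KIF4A with decitabine plus valproic acid. A fit on the arrays of the 2 groups alone, which has fewer arrays to estimate the spread, ended the calls of CCNE1 with panobinostat and of BUB1, KIF13B, KIF14 and KIF1B with valproic acid. It also ended those of CENPK, KIF14, KIF15, PLK1 and TTK with decitabine plus panobinostat and of CCND1, CENPC and KIF2A with decitabine plus valproic acid. The changes below are on the deposited scale, from the fit to all arrays.

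**Figure D1:**
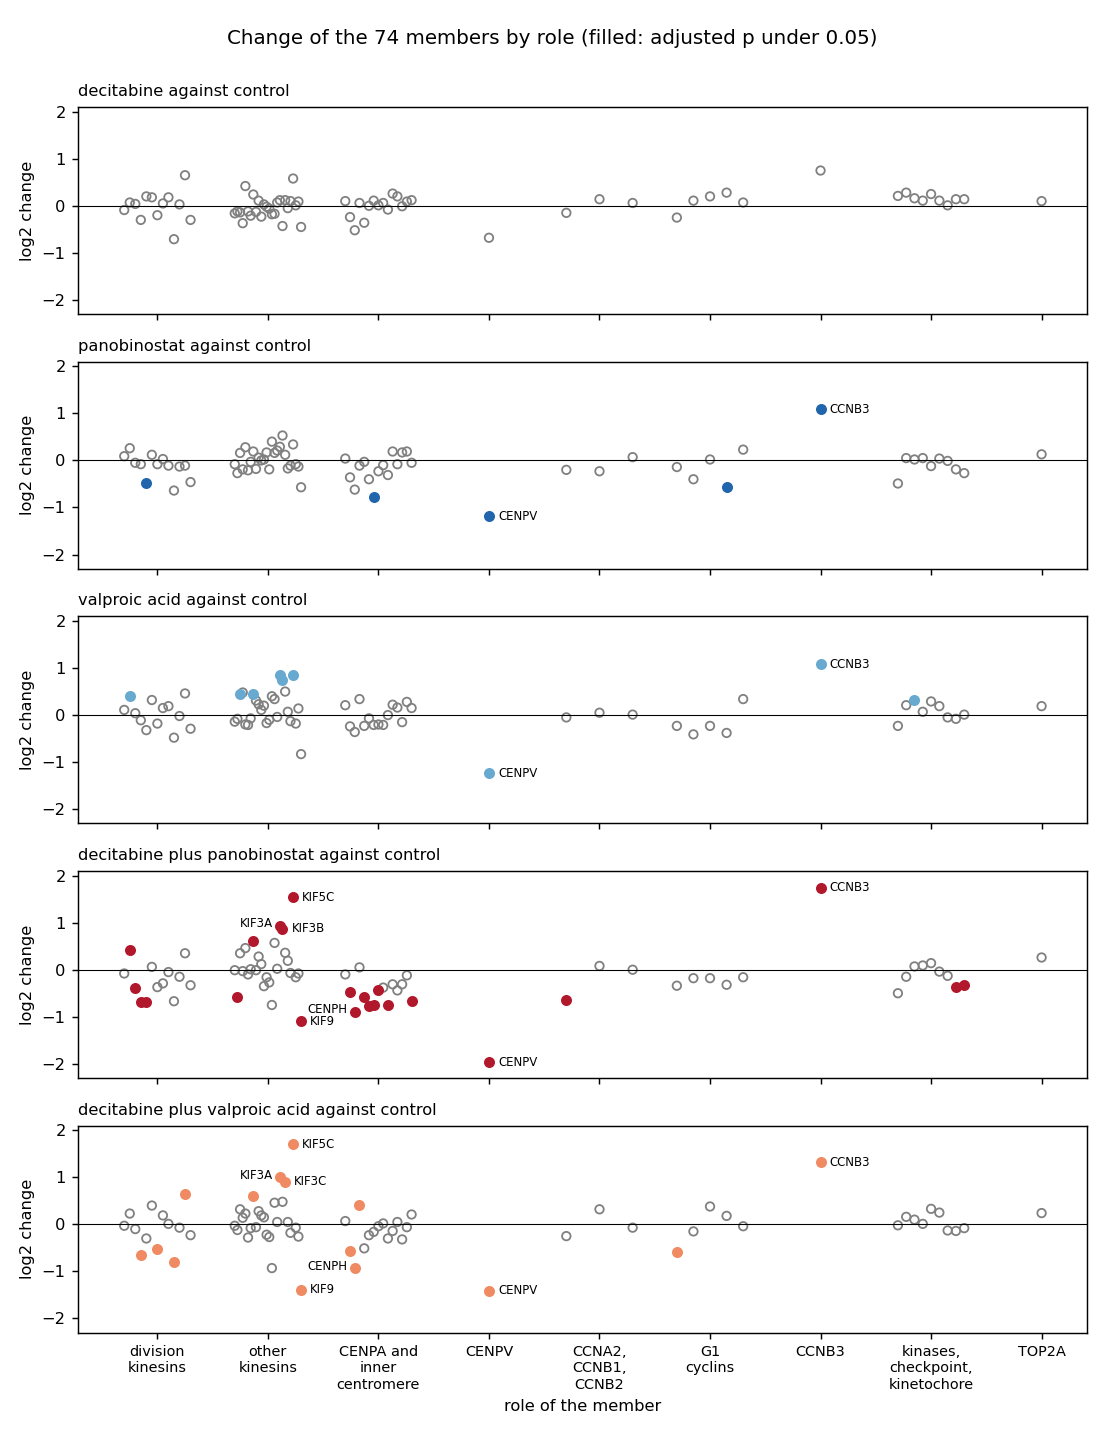
The log2 change of each of the 74 members against control is plotted on the vertical axis for the 5 treatments, by the member's role on the horizontal axis, with 1 point per gene and filled points for an adjusted p under 0.05. CCNB3 lies highest at 1.74 and CENPV lowest at -1.96 with decitabine plus panobinostat, where 8 of the 15 inner centromere genes are filled and below 0.

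The largest change of a member was a fall of CENPV, a protein of pericentromeric chromatin and the spindle midzone that is not part of the inner centromere network. Its level was 9.54, 9.41 and 9.34 on the control arrays and 7.69, 7.19 and 7.54 with decitabine plus panobinostat. It was 8.30, 8.26 and 8.15 with panobinostat, 7.62, 8.46 and 8.49 with valproic acid, and 8.37, 8.21 and 7.48 with decitabine plus valproic acid. The decitabine arrays, at 8.59, 8.96 and 8.69, also lay below every control array. The change with decitabine plus panobinostat was -1.96 (SE 0.23, adjusted p 1.47e-05), a 3.89-fold fall. It was -1.19 (SE 0.23, adjusted p 0.00456) with panobinostat, -1.24 (SE 0.23, adjusted p 0.00424) with valproic acid and -1.41 (SE 0.23, adjusted p 0.00056) with decitabine plus valproic acid. With decitabine alone the change of -0.68 (SE 0.23, adjusted p 0.131) did not pass. The combination with panobinostat was lower than decitabine alone by -1.28 (adjusted p 0.00143). Against panobinostat alone the difference was -0.77 (adjusted p 0.0496), a call lost when any 1 of the 6 arrays compared was left out (-0.88 to -0.62).

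CCNB3, a cyclin used mainly in meiosis, rose in every group that received an inhibitor. The control arrays stood at 5.71, 5.54 and 5.79, and the decitabine plus panobinostat arrays at 7.60, 7.21 and 7.43. Panobinostat gave 6.88, 6.27 and 7.16, valproic acid 6.92, 6.67 and 6.69, and decitabine plus valproic acid 6.87, 6.69 and 7.43. The 3 decitabine arrays, at 6.44, 6.47 and 6.37, were likewise above all controls. The rise was 1.74 (SE 0.2, adjusted p 1.25e-05), or 3.33-fold, with decitabine plus panobinostat, 1.09 (adjusted p 0.00312) with panobinostat, 1.08 (adjusted p 0.0041) with valproic acid and 1.32 (adjusted p 0.000306) with decitabine plus valproic acid. With decitabine it was 0.75 (SE 0.2), with an adjusted p that rounds to 0.05 and did not pass. The combination with panobinostat exceeded decitabine alone by 0.99 (adjusted p 0.00323).

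Among the 26 kinesins not placed in the spindle and division role, 4 rose and 2 fell with decitabine plus panobinostat. With decitabine plus valproic acid 4 of them rose and 1 fell. Their medians were 0.0 and 0.05. Of all genes 11.2% were called higher and 12% lower in the first combination, and 8.9% and 8.06% in the second. The balance depends on the scaling: with arrays centred on their median 4 rose and 5 fell in the first, and 4 rose and 3 fell in the second. Valproic acid alone, with which 4.73% of all genes were called higher, raised 5, and neither panobinostat nor decitabine alone gave a call among them. Those that rose were cargo carriers: KIF3A, KIF3B and KIF3C of kinesin-2, KIF5C of kinesin-1, and KIF1B and KIF13B of kinesin-3.

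KIF3A, the kinesin-2 subunit shared by its heterodimers and needed to build cilia, was at 7.13, 7.42 and 7.38 in control. It reached 8.39, 7.99 and 8.11 with valproic acid, 8.12, 8.18 and 8.44 with decitabine plus panobinostat, and 8.09, 8.33 and 8.53 with decitabine plus valproic acid. No array of these 3 groups overlapped the controls, while panobinostat alone stood at 7.67, 7.44 and 7.71. The changes were 0.85 (SE 0.15, adjusted p 0.00247), 0.94 (SE 0.15, adjusted p 0.000204) and 1.01 (SE 0.15, adjusted p 0.000208) for these 3 groups in turn, and 0.29 (SE 0.15, adjusted p 0.297) for panobinostat. Decitabine plus panobinostat was higher than decitabine by 0.82 (adjusted p 0.00136). It was higher than panobinostat by 0.64 (adjusted p 0.0115), a call lost without decitabine plus panobinostat replicate 3 (0.54) or panobinostat replicate 2 (0.56).

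KIF3B, the usual partner of KIF3A, was at 7.55, 7.85 and 7.58 in control and at 7.14, 7.22 and 7.33 with decitabine. It stood at 7.97, 8.13 and 8.49 with panobinostat, 8.56, 8.28 and 8.39 with valproic acid, and 8.14, 8.65 and 8.79 with decitabine plus panobinostat. Every inhibitor array was thus above every array of cells given decitabine alone, since decitabine plus valproic acid gave 7.77, 8.41 and 8.24. Against control it rose by 0.75 (SE 0.19, adjusted p 0.0211) with valproic acid and by 0.87 (SE 0.19, adjusted p 0.00254) with decitabine plus panobinostat, and was 0.48 higher (adjusted p 0.0954) with decitabine plus valproic acid. Against decitabine it was higher by 1.3 (SE 0.19, adjusted p 0.000217) with panobinostat added and by 0.91 (adjusted p 0.0095) with valproic acid added. The call with valproic acid alone was lost without control replicate 1 (0.7) or 3 (0.71) or valproic acid replicate 1 (0.68) or 3 (0.76), and that of valproic acid added to decitabine without decitabine plus valproic acid replicate 2 (0.78).

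KIF3C, which can replace KIF3B as the partner of KIF3A, was at 6.48, 6.25 and 6.04 in control and at 7.15, 7.09 and 7.26 with decitabine plus valproic acid. The rise was 0.91 (SE 0.17, adjusted p 0.0013), and 0.79 (adjusted p 0.0118) against decitabine alone. With valproic acid alone it was 0.5 (SE 0.17, adjusted p 0.0905) and with decitabine plus panobinostat 0.36 (SE 0.17, adjusted p 0.15), and in both groups arrays overlapped the controls. The call against decitabine was lost without decitabine replicate 1 (0.68) or decitabine plus valproic acid replicate 3 (0.74).

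KIF5C, the kinesin-1 heavy chain best known from neurons, rose from background. Its control values of 3.74, 3.65 and 3.72 lay below the array medians. They were 4.45, 4.08 and 4.33 with decitabine, 4.43, 4.84 and 4.39 with valproic acid, 4.86, 5.01 and 5.87 with decitabine plus panobinostat and 4.90, 5.75 and 5.58 with decitabine plus valproic acid. All of these arrays were above all controls, as were those of panobinostat at 4.21, 3.90 and 4.03. The change was 1.54 (SE 0.24, adjusted p 0.000171) with decitabine plus panobinostat and 1.7 (SE 0.24, adjusted p 0.000135) with decitabine plus valproic acid. Array signals are compressed near background, so these sizes may be understated. Valproic acid alone gave 0.85 (adjusted p 0.0418), a call lost when any 1 of the 6 arrays compared was left out (0.7 to 0.93), and decitabine gave 0.58 (adjusted p 0.226). Adding panobinostat to decitabine raised it by 0.96 (adjusted p 0.0122), a call lost without decitabine replicate 2 (0.85) or decitabine plus panobinostat replicate 3 (0.64). Adding valproic acid to decitabine raised it by 1.12 (adjusted p 0.0118), a call lost without decitabine plus valproic acid replicate 2 (0.95) or 3 (1.04). KIF5B, the kinesin-1 heavy chain of most tissues, had a mean level of 11.32 and changes of -0.07 (95% interval -0.34 to 0.19) and -0.18 (-0.44 to 0.09) with the 2 combinations.

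**Figure D2:**
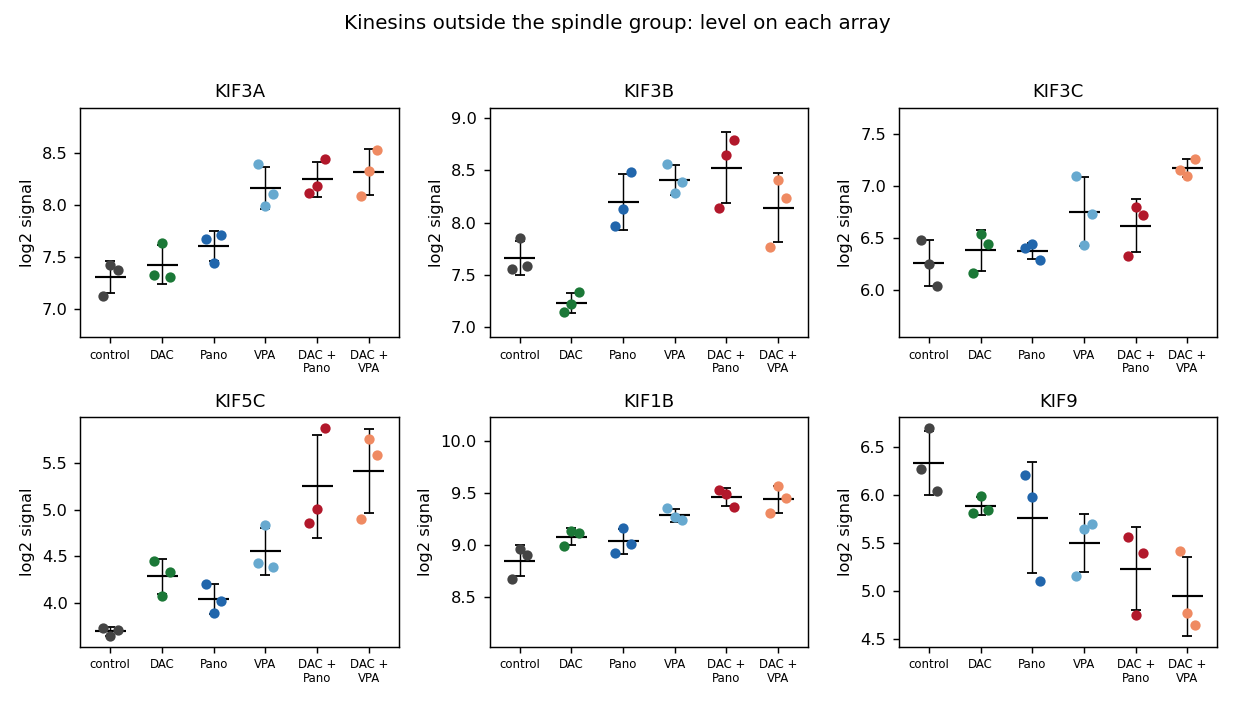
Log2 signal on each array (points) is plotted on the vertical axis for 6 transport kinesins in the 6 groups on the horizontal axis, with lines for the group mean and bars for 1 SD over 3 arrays; DAC is decitabine, Pano panobinostat and VPA valproic acid. KIF5C lies at 3.65 to 3.74 in control and at 4.86 to 5.87 with decitabine plus panobinostat, with no overlap.

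KIF1B, a kinesin-3 that carries mitochondria and synaptic vesicle precursors, was at 8.68, 8.96 and 8.91 in control, 9.53, 9.49 and 9.37 with decitabine plus panobinostat and 9.31, 9.57 and 9.45 with decitabine plus valproic acid. Both combinations were above all controls, with changes of 0.62 (SE 0.11, adjusted p 0.000423) and 0.6 (SE 0.11, adjusted p 0.000994). Valproic acid alone gave 0.44 (adjusted p 0.0179), a call lost without control replicate 1 (0.36) or valproic acid replicate 1 (0.41). KIF1B also had another probe set at a mean level of 3.68, which went from 3.77 in control to 3.55 with decitabine plus panobinostat. Averaging both probe sets leaves changes of 0.2 and 0.27 in these 2 combinations and 0.14 with valproic acid alone, and none of the 3 passes. KIF13B, another kinesin-3 carrier, rose by 0.44 (SE 0.13, adjusted p 0.049) with valproic acid, from 7.10, 7.20 and 7.05 to 7.66, 7.47 and 7.55, a call lost when any 1 of these 6 arrays was left out (0.39 to 0.49).

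The kinesins of this group that fell were KIF9 and KIF13A. KIF9, a motor of motile cilia and flagella, was at 6.27, 6.70 and 6.04 in control, 5.56, 4.75 and 5.40 with decitabine plus panobinostat and 5.42, 4.77 and 4.65 with decitabine plus valproic acid. Neither combination overlapped the controls, and the changes were -1.1 (SE 0.28, adjusted p 0.00936) and -1.39 (SE 0.28, adjusted p 0.00281). The first call was lost without control replicate 2 (-0.92) or decitabine plus panobinostat replicate 2 (-0.85). KIF13A, an endosome carrier, changed by -0.57 (SE 0.16, adjusted p 0.0175) with decitabine plus panobinostat, lost without control replicate 3 (-0.53) or decitabine plus panobinostat replicate 2 (-0.53) and with a spread that follows the level (-0.57).

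KIF26B, a kinesin thought to lack motor activity, was called where a combination was set against its own inhibitor. Against control it was not called on the deposited scale, but with centred arrays it was, at -0.92 (adjusted p 0.0438) with decitabine plus panobinostat and -1.09 (adjusted p 0.0238) with decitabine plus valproic acid. It stood at 7.06, 6.76 and 7.33 with panobinostat and at 6.82, 5.44 and 5.43 with decitabine plus panobinostat, a difference of -1.15 (SE 0.33, adjusted p 0.037) although replicate 1 of the combination overlapped. With valproic acid it stood at 7.42, 6.87 and 6.84, and with decitabine plus valproic acid at 5.86, 6.16 and 5.13, which do not overlap (-1.33, SE 0.33, adjusted p 0.0327). The first call was lost without decitabine plus panobinostat replicate 2 (-0.92) or 3 (-0.92) or panobinostat replicate 1 (-1.15) or 3 (-1.01). The second was lost without decitabine plus valproic acid replicate 1 (-1.4) or 3 (-1.04) or any valproic acid array (-1.43 to -1.14).

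Of the 13 spindle and division kinesins, decitabine plus panobinostat lowered 3 and raised 1, with a median of -0.29. Decitabine plus valproic acid also lowered 3 and raised 1, with a median of -0.07. Of the expressed genes 22.1% were called lower and 16.5% higher in the first, and 14.7% and 13.7% in the second. The 3 of 13 that fell in the first are near that share. With centred arrays none rose in either combination, and 6 and 4 fell. KIF18A and KIF18B, the kinesin-8 motors that limit microtubule growth at kinetochores and spindle poles, and KIF15, which supports the bipolar spindle, fell with decitabine plus panobinostat. KIF18A was at 9.52, 9.5 and 9.38 in control, 8.78, 8.71 and 8.84 with decitabine plus panobinostat and 8.96, 8.68 and 8.81 with decitabine plus valproic acid. Both combinations lay below every control array, by -0.69 (SE 0.13, adjusted p 0.000899) and -0.65 (SE 0.13, adjusted p 0.00233). It was also lower than with the inhibitor alone, by -0.61 (adjusted p 0.00677) for panobinostat and by -0.54 (adjusted p 0.0273) for valproic acid. The latter call was lost without decitabine plus valproic acid replicate 2 (-0.47) or 3 (-0.53) or valproic acid replicate 1 (-0.44) or 3 (-0.54).

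KIF18B was at 8.36, 8.38 and 8.48 in control, 7.94, 7.97 and 7.87 with panobinostat and 7.92, 7.44 and 7.78 with decitabine plus panobinostat. Its change was -0.48 (SE 0.12, adjusted p 0.0258) with panobinostat, a call lost when any 1 of the 6 arrays compared was left out (-0.5 to -0.44), and -0.69 (SE 0.12, adjusted p 0.000599) with the combination. Decitabine alone, at 8.45, 8.69 and 8.69, overlapped the controls, and both inhibitors added to it lowered KIF18B: by -0.89 (adjusted p 0.000176) for panobinostat and by -0.5 (adjusted p 0.0264) for valproic acid. The latter call was lost without decitabine replicate 2 (-0.46) or 3 (-0.46) or decitabine plus valproic acid replicate 2 (-0.41). KIF15 changed by -0.38 (SE 0.1, adjusted p 0.00803) with decitabine plus panobinostat, from 9.78, 9.81 and 9.81 to 9.26, 9.58 and 9.40.

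KIF14, a motor of the cytokinetic midbody, moved the other way. It was at 10.48, 10.52 and 10.51 in control, 11.06, 10.83 and 10.85 with valproic acid and 10.72, 10.99 and 11.07 with decitabine plus panobinostat. The rises were 0.41 (SE 0.1, adjusted p 0.0258) and 0.42 (SE 0.1, adjusted p 0.00782). With arrays centred on their median both fell below the threshold (0.33 and 0.25), and the first was also lost without valproic acid replicate 1 (0.33) or any control array (0.39 to 0.41). KIF4A, a chromosome-bound motor, rose by 0.65 (SE 0.18, adjusted p 0.0183) with decitabine plus valproic acid, from 9.12, 9.19 and 9.36 to 9.79, 9.76 and 10.08. That call was lost without control replicate 1 (0.6) or 2 (0.64) or decitabine plus valproic acid replicate 3 (0.55) and with centred arrays (0.49). KIF4B is a near-identical copy of KIF4A, and the probes may not separate their transcripts.

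KIF2A, a microtubule depolymerase of the spindle poles, shows how 1 array can set a call. Control replicate 2 read 11.52, while the other control arrays read 10.36 and 10.29 and decitabine plus valproic acid gave 10.05, 10.09 and 9.62. The change of -0.8 (SE 0.24, adjusted p 0.0322) shrank to -0.4 without control replicate 2 and was no longer called. It was also lost without decitabine plus valproic acid replicate 3 (-0.65). KIF20B, which acts in cytokinesis, fell by -0.53 (SE 0.16, adjusted p 0.0319) in the same group, from 10.65, 10.74 and 10.48 to 10.16, 10.15 and 9.98. That call was lost without control replicate 1 (-0.52) or 2 (-0.47) or decitabine plus valproic acid replicate 2 (-0.56) or 3 (-0.47). KIF11, which pushes the spindle poles apart, was not called in any comparison with control, and its change with decitabine plus panobinostat was -0.08 (95% interval -0.28 to 0.12). KIF23, the motor of the central spindle, likewise changed by -0.05 (95% interval -0.3 to 0.2).

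The inner centromere network was the role with the most falls in decitabine plus panobinostat. CENPC, CENPH, CENPK, CENPL, CENPM, CENPN, CENPP and CENPX fell, which is 8 of 15, none rose, and the median was -0.44. Of the expressed genes 22.1% were called lower in that combination. With arrays centred on their median 12 of 15 fell. Decitabine plus valproic acid gave 2 falls, 1 rise and a median of -0.14, where 14.7% of expressed genes were called lower and 13.7% higher. With centred arrays 4 of these members fell and none rose. Panobinostat gave 1 fall and a median of -0.1, and valproic acid and decitabine gave no call, with medians of -0.07 and 0.06. CENPA itself was at 9.53, 9.43 and 9.48 in control and 9.55, 9.41 and 9.18 with decitabine plus panobinostat, which overlap (-0.1, 95% interval -0.38 to 0.17).

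CENPH, which with CENPI, CENPK and CENPM forms 1 arm of the network, fell in both combinations. It was at 9.13, 8.88 and 8.54 in control, 7.85, 8.22 and 7.81 with decitabine plus panobinostat and 7.94, 8.23 and 7.60 with decitabine plus valproic acid. None of these overlap the controls, and the changes were -0.89 (SE 0.19, adjusted p 0.00228) and -0.93 (SE 0.19, adjusted p 0.00271). Each single agent also lay lower, by -0.52 (adjusted p 0.159) for decitabine, -0.62 (adjusted p 0.0586) for panobinostat and -0.36 (adjusted p 0.323) for valproic acid, without passing. CENPC, which binds the CENPA nucleosome, was at 8.09, 8.24 and 8.48 in control and fell to 7.88, 7.84 and 7.66 and to 7.99, 7.5 and 7.61 in the same groups. Its changes were -0.48 (SE 0.14, adjusted p 0.0208) and -0.57 (SE 0.14, adjusted p 0.00992). The first call was lost without control replicate 3 (-0.37) or decitabine plus panobinostat replicate 3 (-0.41), the second without control replicate 3 (-0.46) or decitabine plus valproic acid replicate 2 (-0.47).

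CENPM moved with panobinostat. It was at 7.70, 7.47 and 7.98 in control and 7.98, 7.77 and 7.72 with decitabine, but 7.03, 7.04 and 6.77 with panobinostat and 6.96, 6.99 and 6.97 with decitabine plus panobinostat. The 2 panobinostat groups lay below all control and decitabine arrays. The changes were -0.77 (SE 0.17, adjusted p 0.0116) and -0.74 (SE 0.17, adjusted p 0.00476), and -0.85 (adjusted p 0.00317) for the combination against decitabine. The call with panobinostat alone was lost without control replicate 3 (-0.64) or panobinostat replicate 3 (-0.68).

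CENPX, CENPL and CENPP fell with decitabine plus panobinostat. CENPX, a histone-fold partner that also serves in DNA repair, was at 7.78, 7.34 and 7.75 in control and 7.11, 7.08 and 6.70 in this combination. No other treated group went below 7.49, and decitabine plus valproic acid gave 7.63, 7.71 and 8.17. The change was -0.67 (SE 0.16, adjusted p 0.00512). It was -0.79 (adjusted p 0.00272) against decitabine and -0.62 (adjusted p 0.0196) against panobinostat, the latter lost without decitabine plus panobinostat replicate 3 (-0.49) or panobinostat replicate 3 (-0.56).

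CENPL, which with CENPN contacts the CENPA nucleosome, was at 7.37, 7.24 and 7.21 in control and 6.31, 6.39 and 6.79 with decitabine plus panobinostat, below every control array (-0.78, SE 0.16, adjusted p 0.00156). Its partner CENPN fell by -0.43 (SE 0.11, adjusted p 0.00632), from 10.63, 10.47 and 10.37 to 10.05, 10.20 and 9.93. CENPP went from 8.48, 8.48 and 8.92 to 8.02, 8.16 and 7.45 (-0.75, SE 0.23, adjusted p 0.024). The calls of CENPL and CENPN held with each array left out in turn. That of CENPP was lost without control replicate 3 (-0.6) or decitabine plus panobinostat replicate 3 (-0.54). CENPK changed by -0.59 (SE 0.18, adjusted p 0.0217), a call lost without control replicate 1 (-0.46) or 2 (-0.6) or decitabine plus panobinostat replicate 1 (-0.39).

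CENPI rose rather than fell. It was at 10.15, 10.07 and 10.01 in control and 10.49, 10.49 and 10.51 with decitabine plus valproic acid, which do not overlap (0.42, SE 0.1, adjusted p 0.0102). With centred arrays the change was 0.26 and did not pass. CENPU, a docking site for PLK1 at the kinetochore, was lower with decitabine plus panobinostat than with panobinostat, at 9.37, 9.17 and 9.28 against 9.83, 9.63 and 9.81 (-0.48, SE 0.11, adjusted p 0.0121). That call was lost without decitabine plus panobinostat replicate 2 (-0.43) or panobinostat replicate 1 (-0.45).

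**Figure D3:**
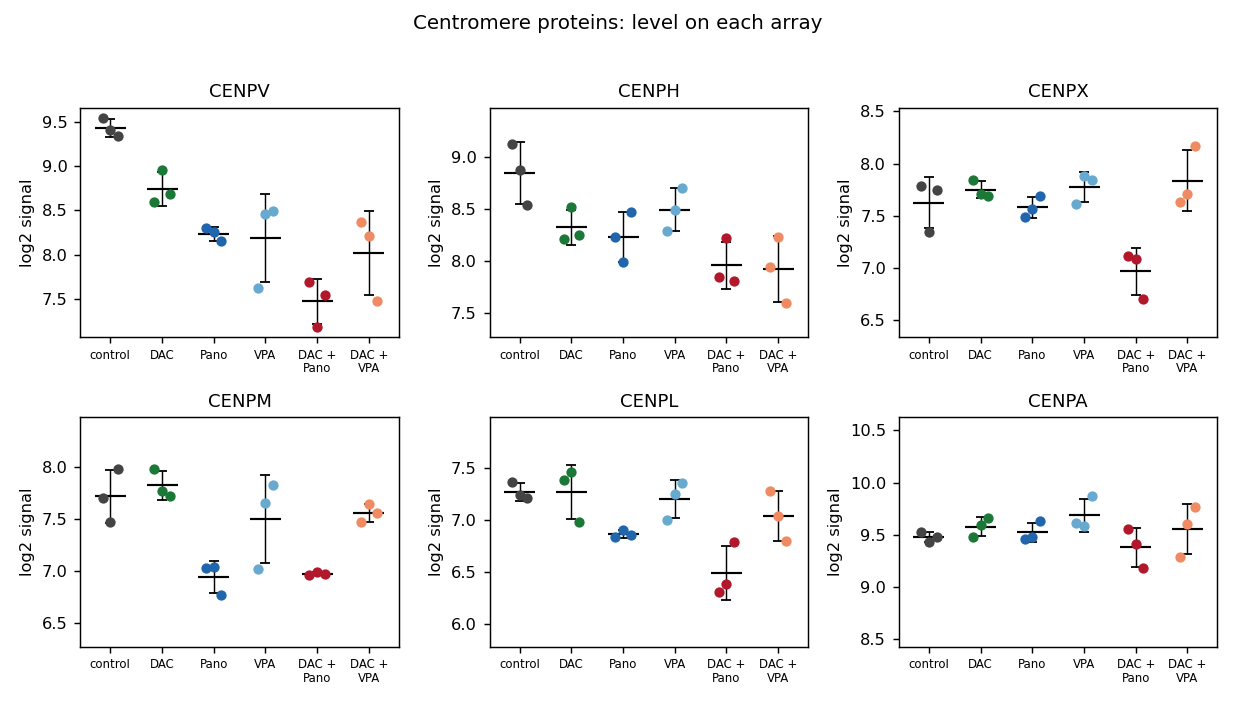
Log2 signal on each array (points) is plotted on the vertical axis for 6 centromere proteins in the 6 groups on the horizontal axis, with lines for the group mean and bars for 1 SD over 3 arrays; DAC is decitabine, Pano panobinostat and VPA valproic acid. CENPX is at 6.70 to 7.11 with decitabine plus panobinostat and at 7.34 to 7.78 in control, while CENPA overlaps between these groups.

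The core of the mitotic engine, CDK1 with CCNB1 and CCNB2, was not called in the combinations under either scaling. CCNB1 and CCNB2, the cyclins that activate CDK1, were not called in any comparison with control. CCNB1 was at 10.39, 10.49 and 10.65 in control and 10.41, 10.81 and 10.55 with decitabine plus panobinostat, which overlap (0.08, 95% interval -0.19 to 0.34). CCNB2 was at 10.69, 10.66 and 10.56 and at 10.45, 10.82 and 10.65 (-0.0, 95% interval -0.22 to 0.21). CDK1, the mitotic kinase itself, was at 10.30, 10.29 and 10.25 and at 9.97, 10.47 and 10.26 (-0.04, 95% interval -0.29 to 0.2). The intervals of these genes reach no further from 0 than 0.34 on the deposited log2 scale. With centred arrays the changes were -0.09 for CCNB1, which turns its sign, -0.17 for CCNB2 and -0.21 for CDK1 (adjusted p 0.608, 0.228 and 0.184). In decitabine plus valproic acid all 3 arrays of CCNB1 (10.87, 10.88 and 10.75) and of CDK1 (10.61, 10.39 and 10.58) were above the controls, with changes of 0.32 (SE 0.13, adjusted p 0.0985) and 0.25 (SE 0.11, adjusted p 0.163) that did not pass.

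CCNA2, the cyclin of S and G2, fell with decitabine plus panobinostat. It was at 12.14, 12.23 and 12.09 in control and 11.34, 11.67 and 11.50 with decitabine plus panobinostat, below every control array (-0.65, SE 0.15, adjusted p 0.0036). Against decitabine alone the difference was -0.5 (adjusted p 0.029), lost without decitabine replicate 2 (-0.46) or 3 (-0.46) or decitabine plus panobinostat replicate 1 (-0.42) or 3 (-0.5). The other treated groups overlapped the controls or, with decitabine at 11.85, 12.07 and 12.07, lay below them by -0.15 (SE 0.15, adjusted p 0.691).

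Of the 9 mitotic kinases, checkpoint and kinetochore genes, 2 fell and none rose with decitabine plus panobinostat, none was called with decitabine plus valproic acid, and the medians were -0.13 and 0.01. Among expressed genes 22.1% were called lower in the first combination and 14.7% in the second, so 2 of 9 is near the share in the first. With centred arrays 5 fell in the first, adding AURKA (-0.67, adjusted p 0.0125), AURKB (-0.31, adjusted p 0.0352) and NDC80 (-0.29, adjusted p 0.0317), and NDC80 fell in the second (-0.29, adjusted p 0.0423). PLK1, the kinase of mitotic entry and centrosome maturation, was at 10.92, 10.88 and 11.13 in control and 10.59, 10.75 and 10.48 in the first combination (-0.37, SE 0.11, adjusted p 0.0177). TTK, the kinase that starts checkpoint signalling, was at 10.74, 10.84 and 10.76 and at 10.44, 10.36 and 10.57 (-0.32, SE 0.1, adjusted p 0.027). Neither overlapped, but the first call was lost without control replicate 3 (-0.29) or decitabine plus panobinostat replicate 3 (-0.3). The second was lost without control replicate 2 (-0.29) or 3 (-0.33) or decitabine plus panobinostat replicate 1 (-0.32) or 2 (-0.27). Adding panobinostat to decitabine lowered PLK1 by -0.51 (adjusted p 0.00352), TTK by -0.47 (adjusted p 0.0044), AURKA by -0.71 (adjusted p 0.0141) and AURKB by -0.42 (adjusted p 0.0139). The AURKA call was lost without decitabine plus panobinostat replicate 2 (-0.53), and the AURKB call without that array (-0.37) or decitabine replicate 3 (-0.37).

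AURKA, the centrosomal Aurora kinase, was at 8.84, 8.84 and 8.99 in control and 8.36, 8.02 and 8.79 with decitabine plus panobinostat, a change of -0.5 (SE 0.18, adjusted p 0.0602) that did not pass on the deposited scale. AURKB, the Aurora kinase of the chromosomal passenger complex, changed by -0.15 (adjusted p 0.413). BUB1 rose by 0.32 (SE 0.09, adjusted p 0.0391) with valproic acid, from 10.71, 10.58 and 10.49 to 10.89, 10.88 and 10.97. That call was lost with centred arrays (0.25), without control replicate 2 (0.32) or 3 (0.27) and without any valproic acid array (0.29 to 0.34). With decitabine plus panobinostat the checkpoint genes BUB1 (0.07) and BUB1B (0.09), the anaphase activator CDC20 (0.14) and the microtubule-binding NDC80 (-0.13) were not called on that scale. With centred arrays the values of BUB1, BUB1B and CDC20 turned to -0.1, -0.08 and -0.03, without a call. TOP2A was above all controls in both combinations, with changes of 0.26 (SE 0.1, adjusted p 0.0753) and 0.24 (SE 0.1, adjusted p 0.112) that did not pass.

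The G1 cyclins gave 2 calls against control on the deposited scale. With centred arrays CCND1 (-0.51, adjusted p 0.0321) and CCNE1 (-0.49, adjusted p 0.033) also fell with decitabine plus panobinostat. CCNE1, which starts S phase with CDK2, was at 8, 7.81 and 8.21 in control and 7.32, 7.32 and 7.71 with panobinostat (-0.56, SE 0.16, adjusted p 0.0434). With decitabine plus valproic acid, at 8.20, 8.19 and 8.17, it overlapped the controls. The panobinostat call was lost without control replicate 1 (-0.56) or 3 (-0.46) or panobinostat replicate 1 (-0.49) or 2 (-0.49). Adding panobinostat to decitabine lowered CCNE1 by -0.6 (adjusted p 0.0169), lost without decitabine replicate 3 (-0.44) or decitabine plus panobinostat replicate 2 (-0.5). CCND1 was at 6.94, 6.83 and 6.69 in control and 6.48, 6.46 and 5.77 with decitabine plus valproic acid (-0.59, SE 0.17, adjusted p 0.023). Without decitabine plus valproic acid replicate 3 the change was -0.36, and the call was also lost without control replicate 1 (-0.53) or 2 (-0.58). CCND2, CCND3 and CCNE2, the other cyclins that act at the entry into S phase, were not called, with changes of -0.18, -0.18 and -0.16 in decitabine plus panobinostat.

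**Figure D4:**
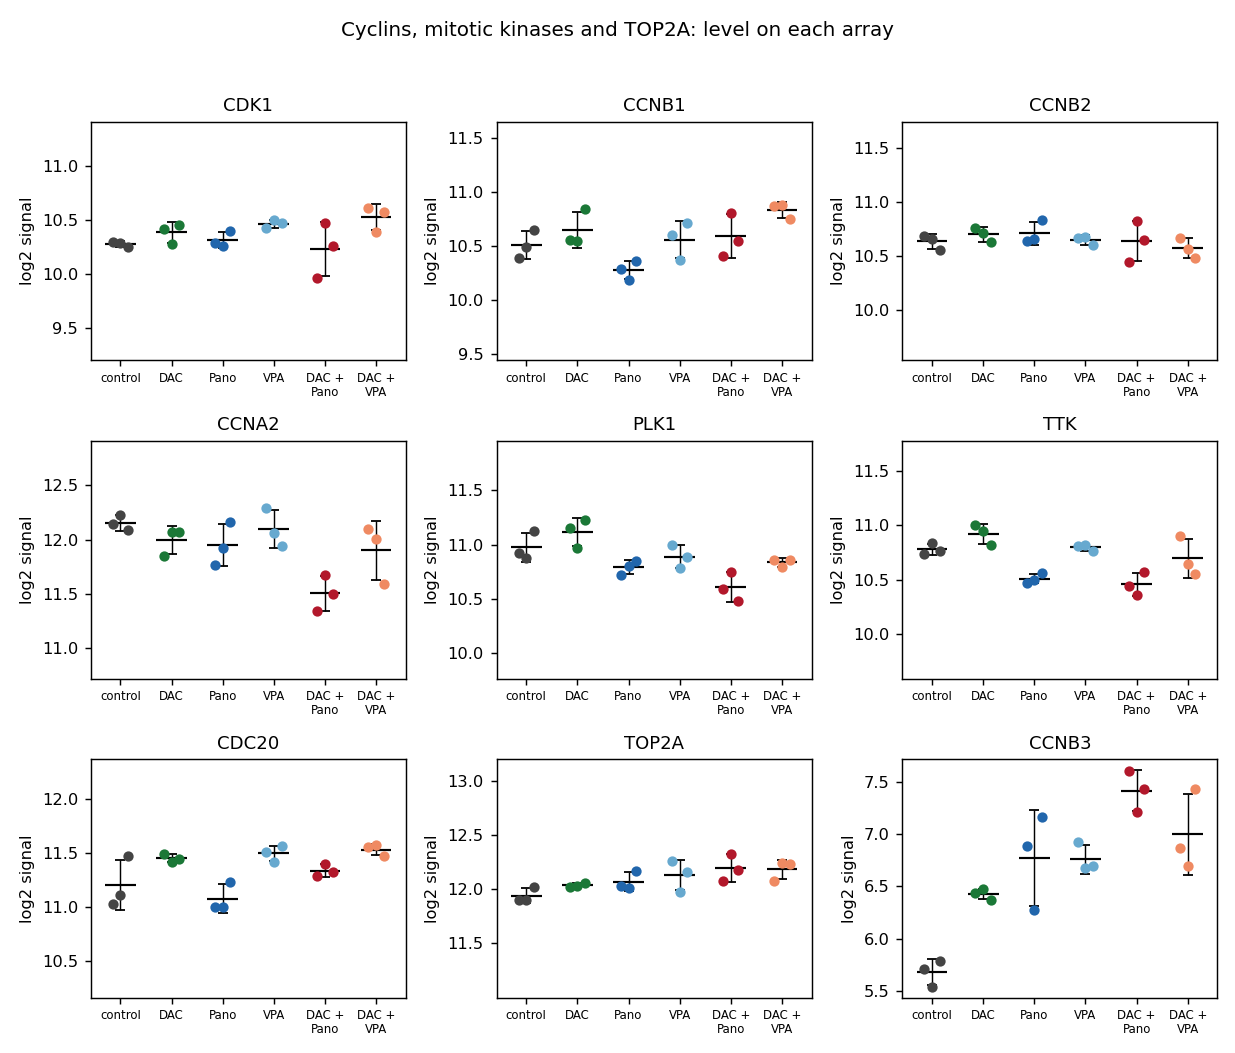
Log2 signal on each array (points) is plotted on the vertical axis, for the 6 groups on the horizontal axis. The genes are CDK1, CCNB1, CCNB2, CCNA2, PLK1, TTK, CDC20, TOP2A and CCNB3. Lines give the group mean and bars 1 SD over 3 arrays. DAC is decitabine, Pano panobinostat and VPA valproic acid. CCNB3 rises from 5.54 to 5.79 in control to 7.21 to 7.60 with decitabine plus panobinostat, while CCNB1 and CDK1 overlap between these groups.

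Adding an inhibitor to decitabine called 21 members for panobinostat (7 higher, 14 lower), where 15.6% of all genes were called (7.66% higher, 7.91% lower), and 5 for valproic acid (4 higher, 1 lower), where 6.13% were (3.57% higher, 2.57% lower). Among expressed genes the shares were 26.6% and 10.8%, beside 33.3% and 7.94% of the 63 expressed members. With arrays centred on their median the member counts became 27 (5 higher, 22 lower) and 10 (4 higher, 6 lower). Over all genes the calls went from 2317 to 2633 and from 913 to 1168. Adding decitabine to the inhibitor called 9 members for panobinostat (3 higher, 6 lower), where 9.55% of all genes were called (5.42% higher, 4.13% lower). For valproic acid it called 2, both lower, where 4.03% of all genes were called (2.63% higher, 1.4% lower). Among expressed genes these shares were 15.2% and 6%, beside 14.3% and 3.17% of the expressed members. The centred count for panobinostat was 13, with 2 higher and 11 lower, while the calls over all genes went from 1421 to 1738. Without decitabine plus valproic acid replicate 1, which stood apart on the first component, valproic acid added to decitabine called 11 members (7 higher, 4 lower), and the combination against control called 17 (8 higher, 9 lower) rather than 15. Over all genes the calls without replicate 1 went from 913 to 1227 for valproic acid added to decitabine. For the combination against control they went from 2524 to 2547. Without replicate 2 or 3 of that group the member counts for valproic acid added to decitabine were 2 and 3, and those over all genes 376 and 360.

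The interaction, what the pair of agents changed beyond the added changes of the single agents, called no member for either inhibitor in limma. For panobinostat 12 members had an unadjusted p under 0.05, and 0.625% of all genes were called. For valproic acid 6 did, and 0.0605% of all genes were called. The lowest adjusted p among members, singled out after the values were seen, was that of CENPX for panobinostat (-0.74, SE 0.22, adjusted p 0.189). A departure from additivity was thus not shown for any member, CENPV and CCNB3 included.

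Of the members called with the 2 combinations, 9 were called with both, which is 39.1% of the 23 and 60% of the 15. These were CCNB3, KIF1B, KIF3A and KIF5C, which rose, and CENPC, CENPH, CENPV, KIF18A and KIF9, which fell. The matching overlap over all genes was not computed, so this overlap is not read as particular to the members. The comparisons share their controls. Their difference was not tested, and the doses of the inhibitors are not matched.

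Other cell cycle genes, listed from general knowledge by function, give the surroundings of the members. For scale, with decitabine plus panobinostat 22.1% of expressed genes were called lower and 16.5% higher (12% and 11.2% of all genes). With decitabine plus valproic acid 14.7% of expressed genes were called lower and 13.7% higher (8.06% and 8.9% of all genes). With valproic acid alone 2.74% of all genes were called lower and 4.73% higher. DNA replication genes fell most widely: with decitabine plus panobinostat 18 of 20 measured genes fell and none rose, with a median of -0.59, and with decitabine plus valproic acid 6 fell, with a median of -0.28. GINS3 and CDC45, parts of the replicative helicase, changed by -1.59 (SE 0.2, adjusted p 2.07e-05) and -1.12 (SE 0.14, adjusted p 2.05e-05). TYMS, which makes thymidylate, changed by -1.06. Of 17 genes of the anaphase promoting complex and securin, 7 fell and none rose with decitabine plus panobinostat (median -0.43), led by the inhibitor FBXO5 at -0.91. With decitabine plus valproic acid 2 rose and 2 fell (median -0.32), UBE2S at 0.69 among those that rose.

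With decitabine plus panobinostat 6 of 20 other kinetochore and checkpoint genes fell and none rose (median -0.23). Among them were MAD2L1 at -1.13 and TRIP13 at -1.09, which assemble and take apart the checkpoint complex. The lists that follow are for the same combination unless another group is named. Of 15 other spindle and cytokinesis genes, 3 fell and none rose (median 0.02), with RACGAP1, the partner of KIF23, at -1.11 and PLK4, the kinase of centriole duplication, at -0.77. Of 11 condensin and cohesin genes, 2 fell (median -0.27), the cohesin subunits STAG1 at -0.62 and STAG2 at -0.59. The 3 of 15 spindle and cytokinesis genes and these 2 of 11 are near the 22.1% of expressed genes called lower. Those counts thus say nothing particular about their lists. Of 12 kinases, phosphatases and other regulators, 4 fell and none rose (median -0.21), led by the CDK-activating phosphatase CDC25A at -1.21 and the G1 kinase CDK4 at -0.88. Of 17 cell cycle transcription factors, 6 fell and 1 rose in that group (median -0.32). TFDP1, the partner of E2F factors, changed by -1.66, FOXM1, an activator of G2 genes, by -0.69, and MYBL2 by -0.67. RBL2, a repressor of G2 genes, was the 1 that rose, by 0.56. These factors split differently in other groups, a difference that was not tested. With decitabine plus valproic acid 4 fell and 3 rose (median -0.14). TFDP1 (-0.79), E2F3 (-0.61), LIN9 (-0.52) and RBL1 (-0.36) fell, and MYBL1 (0.53), TFDP2 (0.52) and E2F7 (0.46) rose. Panobinostat alone lowered TFDP1 (-0.95) and MYBL2 (-0.63). With valproic acid alone none fell and 3 rose, MYBL1 by 0.6, E2F7 by 0.59 and RBL2 by 0.45. Among the spindle genes NEK2, a centrosomal kinase, rose by 0.6 with decitabine plus valproic acid and by 0.71 with valproic acid, the only call of that list in either group. With decitabine plus valproic acid 4 other kinetochore and checkpoint genes, 2 of condensin and cohesin and 4 kinases, phosphatases and regulators fell, and none of these 3 lists had a rise. Of the inhibitors of cyclin-dependent kinases 2 were measured and none was called.

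**Figure D5:**
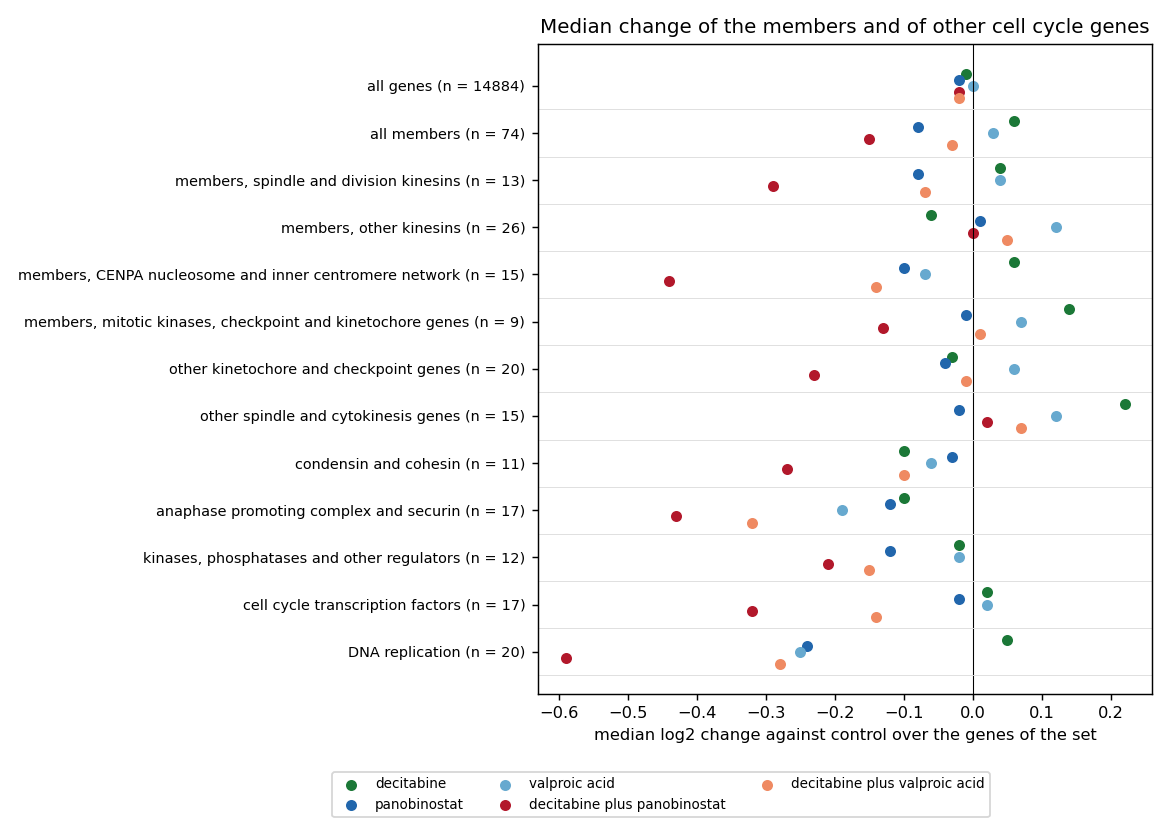
The median log2 change against control over the genes of each set is plotted on the horizontal axis for all genes, the members, 4 roles of members and 7 lists of other cell cycle genes, with 1 colour per treatment. With decitabine plus panobinostat DNA replication genes lie lowest at -0.59 and the inner centromere network at -0.44, against -0.02 for all genes. Values are on the deposited scale, and centring the arrays would lower all sets of a treatment alike.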

How the data were processed

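The authors deposited log2 signals made with RMA per the submitters' processing notes (background correction, quantile normalization, summary by probe set); its version is not given in the sources used here. Quantile normalization forces equal value distributions on the arrays, so a shift of all genes cannot be seen. Of 48226 probe sets 16098 had 1 symbol, 0 several and 32128 none, which left 14884 genes after keeping the brightest probe set of the 779 genes with several. Symbols came from the array's annotation and RefSeq. limma 3.58.1 in R 4.3.3 fitted 1 mean per group over 18 arrays, with 12 residual degrees of freedom, for 11 comparisons, and the code was tested on simulated data. No array was dropped or imputed.

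The members and lists were chosen with earlier results of these data known. Named are called members whose arrays do not overlap (up to 10 in each direction against control), up to 5 in each direction in other comparisons, fixed cyclins and kinases, the 3 brightest and dimmest, and up to 3 genes per list. CENPK, CENPN, KIF13A, KIF15, KIF23, KIF4B and KIF5B were added after their values were seen. For the cell cycle transcription factors more than 3 are named in the combinations, to give both directions.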

Additional observations from a re-analysis of the deposited data

How the results depend on the processing

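Each count of called members was recomputed under 6 other settings and with each array left out in turn. With decitabine, where no member was called, the groups compared alone gave 3, the replicate block 1, a filter on genes at a level of 5 or more 2, the mean of all probe sets 1 and a spread that follows the level 1. Over all genes the decitabine calls went from 590 to 508, 586, 635, 595 and 610 in turn, where the filter counts only the genes it kept. With valproic acid, 9 became 5 with the groups compared alone and 5 with centred arrays, and with decitabine plus panobinostat 23 became 37 with centred arrays. Over all genes the valproic acid calls went from 1112 to 837 with the groups alone and to 1167 with centred arrays. Those of decitabine plus panobinostat went from 3447 to 4501 with centred arrays. The groups compared alone gave 13 rather than 21 for panobinostat added to decitabine, 2 rather than 5 for valproic acid added to decitabine, 4 rather than 9 for decitabine added to panobinostat and 0 rather than 2 for decitabine added to valproic acid. Over all genes the calls in these 4 comparisons went from 2317 to 1847, 913 to 177, 1421 to 938 and 600 to 261. For valproic acid added to decitabine the filter gave 9 and centring 10. The filter called 1021 of the genes it kept and centring 1168 of all genes, against 913. The cause of these shifts was not tested beyond the fewer arrays or genes in the fit.

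With 1 array left out the counts ranged from 0 to 0 for decitabine, 3 to 4 for panobinostat, 3 to 7 for valproic acid, 20 to 23 for decitabine plus panobinostat and 11 to 17 for decitabine plus valproic acid. They ranged from 16 to 20 for panobinostat added to decitabine, 2 to 11 for valproic acid added to decitabine, 4 to 8 for decitabine added to panobinostat, 0 to 2 for decitabine added to valproic acid and 0 to 0 for the interactions. The panobinostat count fell from 5 to 3 without control replicate 3 or any panobinostat array. The valproic acid count fell to 4 without control replicate 1, to 5 without control replicate 2 or 3 or valproic acid replicate 3, and to 3 without valproic acid replicate 1. The count for decitabine added to panobinostat fell to 4 without decitabine plus panobinostat replicate 3 or panobinostat replicate 1 and to 5 without panobinostat replicate 3. The count for decitabine added to valproic acid fell to 1 without decitabine plus valproic acid replicate 2 or valproic acid replicate 2, and to 0 without decitabine plus valproic acid replicate 3 or valproic acid replicate 1 or 3. The calls over all genes fell in each of these settings too. They went from 1100 to 659 for panobinostat without control replicate 3, and from 1112 to 508 for valproic acid without valproic acid replicate 1. Of the 89 called changes of members over all comparisons, 38 kept their call under all 12 alternatives, 51 lost it under at least 1 and 0 reversed, while 11 changes named without a call passed under at least 1.

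The replicate numbers gave no clear sign of pairing the arrays, though a check on 3 arrays a group is weak and cannot exclude it. Deviations of same-numbered arrays correlated at a median of 0.02 (45 pairs, -0.11 to 0.1, 1 of them over 0.1), and 8 of 18 arrays correlated best with their own number. Arrays of other numbers correlated at a median of -0.0 (90 pairs, -0.12 to 0.15). The replicate block ended the calls of BUB1 with valproic acid, CENPQ for panobinostat added to decitabine and CENPV for decitabine added to panobinostat (-0.77). The number of arrays, 3 a group, limits precision, and members near background have compressed changes.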

Other observations

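Some members missed the threshold by little and are given as values, chosen after they were seen. CDC20, the activator of the anaphase promoting complex, was above all controls with decitabine plus valproic acid (0.33, adjusted p 0.0511 in limma). KIF4A was above all controls with decitabine alone (0.65, adjusted p 0.0551), at 9.73, 10.13 and 9.74 against 9.12, 9.19 and 9.36. CENPI was above all controls with valproic acid alone (0.34, adjusted p 0.0537), as it was with decitabine plus valproic acid. CENPU lay below all controls with decitabine plus panobinostat (-0.31, adjusted p 0.0557).

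With decitabine alone 46 of the 74 members were above 0 and 28 below, and no change passed. With decitabine plus panobinostat 23 were above 0 and 51 below. Over all genes the counts were 7235 above and 7649 below with decitabine, and 6940 above and 7944 below with decitabine plus panobinostat. All of these counts are on the deposited scale. Centring lowers every change by 0.07 with decitabine and by 0.17 with decitabine plus panobinostat. With decitabine it turned small rises such as those of CCNB2 (-0.01), CENPO (-0.01) and NDC80 (-0.06) below 0. The counts with centred arrays were not computed, so no lean toward higher levels is read from them.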
